A study of Mus musculus with 20 samples.

Results

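Type 2 multipotent progenitors (MPP2) were compared with long-term hematopoietic stem cells (LT-HSC) in wild-type mice. The members of the comparison are 7 of the 20 RNA-seq libraries of the study: 3 wild-type (WT) MPP2 libraries, called replicates 1 to 3, and 4 WT LT-HSC libraries, called replicates 1 to 4. They were taken by their labels for genotype and cell type, with no measured value in the choice. The remaining 13 libraries, 4 of WT MPP3 and 9 of Hopx knockout (KO) cells, entered the fit to share 1 estimate of spread. All 20 came from bone marrow of C57BL/6 mice aged 8 weeks, were sorted on a FACSAria III and were made from total RNA with Nextera XT. WT means that the labels give Hopx, a small homeodomain protein without DNA binding of its own, as wild type, and no group received a treatment. The labels name neither the sorting antigens nor the animals, so the p-values measure only the spread between libraries.

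LT-HSC sit at the top of blood formation. They divide rarely and can rebuild all blood lineages over long periods after transplantation. MPP2 lie below them in the same marrow fraction, divide more often, rebuild blood only for a short time and are known for output toward platelets, red cells and myeloid cells. Both are commonly sorted on SLAM family proteins: CD150, encoded by Slamf1, is carried by both, and CD48 by MPP2 and not by LT-HSC.

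Reads assigned to genes numbered 13035794 to 15153309 per WT MPP2 library and 12475841 to 14647699 per WT LT-HSC library, and 17021 to 19596 genes had a read. Values below are normalized counts (reads divided by the library's deposited size factor, so 1 read is worth 0.874 to 1.18 units in these 7 libraries), given in the order of the replicate numbers. Differences are MPP2 minus LT-HSC in the mean of log2(value + 1). On this scale the added 1 shrinks the change of genes with few reads throughout, and a library without reads beside others with many can enlarge it. A gene is said to be higher or lower where limma's moderated test, adjusted by Benjamini-Hochberg over all 17160 genes tested, gave a p under 0.05.

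Several libraries stood apart. In WT MPP2 replicate 3 the immunoglobulin transcripts Igkc, Ighm and Jchain made up 3.80% of the gene reads, against at most 0.00179% in the other 6 libraries. This library correlated across genes more closely with WT LT-HSC replicate 3 (Pearson r = 0.8785 on log2 values) than with WT MPP2 replicates 1 and 2 (r = 0.857 and 0.869), a description with no test. WT LT-HSC replicate 3 and WT MPP2 replicate 3 share the library-number run 52 to 54 in the sample titles, and were the only members above 100 normalized counts for Xist, the X-inactivation transcript of female cells, so run and sex cannot be told apart there. WT LT-HSC replicate 2 and WT MPP2 replicate 2 held the most neutrophil transcripts of their groups, with 1.83, 6728, 74.3 and 285 in LT-HSC and 60.3, 3607 and 549 in MPP2 for S100a8. Hopx itself had 30.2, 58.9, 37.1 and 0 in LT-HSC and 61.2, 11.01 and 40.2 in MPP2. The ranges of the groups overlapped (a log2 difference of 0.94 ± 1.08 (SE; limma adjusted p = 0.832)). The 3 KO LT-HSC and 3 KO MPP2 libraries had no Hopx read, and neither did the library labelled WT LT-HSC replicate 4. Its value goes against its label, and its genotype is not settled here. It is used as labelled, and the counts without it are given below.

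The labelled cell types were checked on genes of proteins commonly used to sort them. Cd48 had 83.3, 324, 193 and 84.8 in LT-HSC and 1626, 2003 and 7347 in MPP2. Every MPP2 library lay above every LT-HSC library, but the difference missed the threshold (4.30 ± 1.03, SE, limma adjusted p = 0.056). It passed with DESeq2 (adjusted p = 0.000342), voom weights (0.0268), a pseudocount of 16 (0.007002) and limma on the 7 members alone (0.0288), and not with edgeR (0.0517). Slamf1 was read in every library, with 1225, 971, 931 and 821 in LT-HSC and 606, 407 and 512 in MPP2. Flt3, the receptor of the lymphoid-primed multipotent progenitors, had 214, 166, 863 and 713 in LT-HSC and 94.4, 138 and 4080.4 in MPP2, and the single high MPP2 value belonged to the library with the immunoglobulin transcripts. Ly6a, which encodes Sca-1, had 1649, 1472, 3741 and 1976 in LT-HSC and 108, 82.1 and 3451 in MPP2. MPP2 replicates 1 and 2 lay far below the LT-HSC range and replicate 3 inside it (limma adjusted p = 0.167). These genes do not settle the label MPP2. Cd48 lay on the side expected from it in all MPP2 libraries, while Ly6a in replicates 1 and 2 and Flt3 in replicate 3 set these libraries apart from each other. The cell make-up of the MPP2 libraries was not tested, and they are used as labelled.

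In WT MPP2, 48 genes were higher and 95 were lower than in WT LT-HSC. These counts are 0.28% and 0.554% of the 17160 genes tested, together 143 genes or 0.833%. All 3 MPP2 libraries lay above all 4 LT-HSC libraries for 800 genes (4.66%) and below them for 1327 genes (7.73%). An unadjusted limma p under 0.05 was reached by 4.81% of the tested genes as higher and 7.44% as lower. Of the 143 genes, 142 were separated in this way, and the exception was Dek, a chromatin protein. The 2 directions differed in size: the median log2 difference was 1.35 among the higher genes and -4.84 among the lower ones, against -0.07 over all genes tested. The difference was under 2-fold for 15 of the 48 higher genes and for 3 of the 95 lower genes. It was over 16-fold for 13 higher and 59 lower genes. In sorted bulk cells, fewer cells that express a gene and less RNA per cell cannot be told apart. The scatter of mean levels shows the lower genes spread from well-read levels down to the floor of the MPP2 axis, and most higher genes close to the diagonal. Of the 95 lower genes, 55 had under 20 normalized counts in every MPP2 library.

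**Figure D1:**
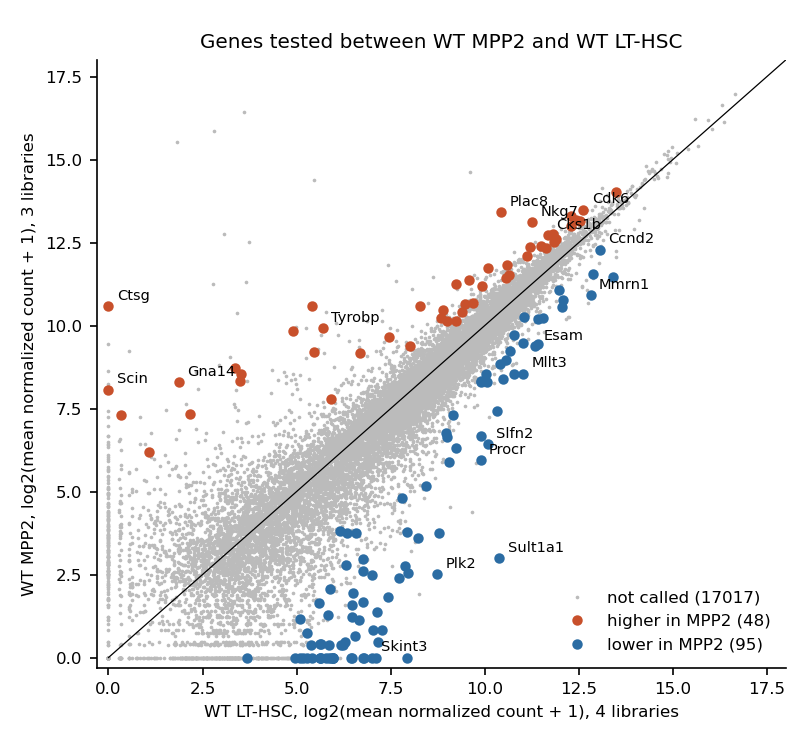
log2(mean normalized count + 1) of each of the 17160 genes tested, over the 4 wild-type LT-HSC libraries on the horizontal axis and the 3 wild-type MPP2 libraries on the vertical axis. The 48 genes higher (red) and 95 genes lower (blue) in MPP2 by limma are coloured and some are named, and the lower ones spread down to the floor of the vertical axis.

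The number of calls rested on single libraries. Without WT MPP2 replicate 3, limma called 55 genes higher and 229 lower, and 107 of the 143 genes stayed. Leaving out WT MPP2 replicate 1 left 18 higher and 31 lower, and leaving out WT MPP2 replicate 2 left 19 and 26. Among the LT-HSC libraries the counts were 84 and 100 without replicate 1, 21 and 41 without replicate 2, 17 and 32 without replicate 3 and 23 and 49 without replicate 4. edgeR's quasi-likelihood test on the recovered reads called 21 higher and 14 lower, all 35 of them among the 143, and the other 108 missed its threshold. With the library-number run as a term, limma called 145 higher and 219 lower, 138 of the 143 among them. Calls are therefore given below with the libraries they depend on.

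The called genes of the stem-cell lists were all lower in MPP2. Of 24 tested genes of stem-cell surface and adhesion proteins, 3 were lower in MPP2 and none was higher, with a median log2 difference of -1.15, and 10 had all MPP2 libraries below all LT-HSC libraries. Of 28 transcription factors of stem cells, 2 were lower and none was higher, with a median of -0.91, and all 28 fitted differences were below 0. Of 16 tested Hox genes and cofactors, 1 was lower, with a median of -1.75, and again all 16 were fitted below 0. Over all 17160 genes tested, 7763 were fitted above 0 and 9366 below. With the library-number run as a term, limma called 7, 8 and 3 genes of these lists lower. Without WT LT-HSC replicate 4 it called 2, 1 and 1 lower. The background shares above, 0.28% higher and 0.554% lower, belong to the fit of all 20 libraries without that term. Of all 17160 genes tested, the fit with the run term called 145 higher and 219 lower. The fit without WT LT-HSC replicate 4 called 23 higher and 49 lower.

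Sult1a1 (Ensembl ENSMUSG00000030711; chromosome 7, 126672865 to 126676432, minus strand), a cytosolic sulfotransferase on the surface-gene list as a stem-cell marker transcript, had 1616, 604, 1282 and 1869 in LT-HSC and 7.87, 0 and 12.99 in MPP2. The groups were far apart, with a log2 difference of -7.96 ± 0.97 (SE; limma adjusted p = 0.000565). Procr (Ensembl ENSMUSG00000027611; chromosome 2, 155751117 to 155755471, plus strand), the endothelial protein C receptor used to purify stem cells, had 605, 935, 1267 and 995 in LT-HSC and 0, 0 and 182 in MPP2. The 3 MPP2 libraries did not look alike: replicates 1 and 2 had no read, and replicate 3, the library with the immunoglobulin transcripts, had a level nearer to LT-HSC. The difference was -7.34 ± 1.32 (SE; limma adjusted p = 0.0137), and it missed the threshold without MPP2 replicate 1 or 2 (limma adjusted p = 0.0727 and 0.0759). It was smaller and not called with edgeR (-4.001, adjusted p = 0.245) and DESeq2 (-3.97, 0.137), and not called by limma on the 7 members alone (0.0933). Esam, an adhesion molecule of endothelial and stem cells, had 2713, 2304, 2398 and 2955 in LT-HSC and 727, 260.2 and 995 in MPP2, with a log2 difference of -2.17 ± 0.44 (SE; limma adjusted p = 0.0276).

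Among the transcription factors, Mllt3, a chromatin reader that maintains stem cells, had 1406, 2713, 2777 and 1442 in LT-HSC and 176, 470.3 and 476 in MPP2, with a log2 difference of -2.54 ± 0.45 (SE; limma adjusted p = 0.0131). No MPP2 library reached an LT-HSC library. Eya2, a transcriptional cofactor with phosphatase activity, had 1473, 1068, 1511 and 1646 in LT-HSC and 375, 169 and 458 in MPP2 and a log2 difference of -2.19 ± 0.43 (SE; limma adjusted p = 0.0223). Mecom, which encodes the stem-cell factor EVI1, had 738, 1433, 1637 and 906 in LT-HSC and 347, 79.1 and 851 in MPP2, and MPP2 replicate 3 again lay in the LT-HSC range (limma adjusted p = 0.17). Meis1, a Hox partner, had 7560.5, 7351, 7175 and 6995 in LT-HSC and 5016, 2871 and 5189.6 in MPP2, with all MPP2 libraries lower and a limma adjusted p of 0.104. In the Hox clusters, Hoxb6 had 41.2, 79.8, 74.3 and 18.7 in LT-HSC and 0, 0 and 0 in MPP2 and Hoxb5 243, 359.9, 311 and 141 in LT-HSC and 0, 8.01 and 16.5 in MPP2. Hoxb6 was lower (-5.57 ± 1.04, SE, limma adjusted p = 0.0171), and Hoxb5 was not called (-5.53 ± 1.41, adjusted p = 0.0721). With 1 library left out of the limma fit, Sult1a1 passed every time, Mllt3 was lost without MPP2 replicate 1 (adjusted p = 0.069), and Esam, Eya2 and Hoxb6 were lost in 4 to 5 of the 7 fits (between them those without LT-HSC replicates 2, 3 and 4 and MPP2 replicates 1 and 2), with adjusted p up to 0.132.

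Of the 95 lower genes, 22 had no read in any of the 3 MPP2 libraries. Their names were taken after their values were seen, and 374 of the 17160 tested genes had no read in WT MPP2. Taking 3 reads over the group as the floor, the 22 genes were at least 9.97-fold to at least 207.6-fold lower. 16 of them also had no read in KO MPP2, and 7 had none in WT MPP3.

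Efna1, a membrane-bound ephrin ligand, had 57.7, 307, 467 and 149.9 in LT-HSC and was at least 207.6-fold lower in MPP2. Skint3, a member of an immunoglobulin-like membrane family, had 168, 125, 90.2 and 129, and Sfrp1, a secreted Wnt antagonist, had 233, 56.97, 112 and 33.9. Lrrn4, a leucine-rich repeat membrane protein, had 90.7, 38.9, 174 and 39.3, Fscn1, an actin-bundling protein, 21.1, 48.4, 49.9 and 119, and Vnn1, a pantetheinase, 206, 106, 177 and 61.6. All 6 were read in every LT-HSC library and in no MPP2 library. Chst2, a sulfotransferase of glycans, Slc17a8, a vesicular glutamate transporter, Fzd9, a Wnt receptor, and Ptges, a prostaglandin E synthase, showed the same pattern. Limma gave adjusted p values from 0.000287 for Skint3 to 0.0289 for Ptges among these 10 genes. Skint3, Sfrp1, Lrrn4, Fscn1, Chst2 and Slc17a8 passed in all 7 leave-one-out fits, while Efna1, Vnn1, Fzd9 and Ptges were lost in 4 to 5 of the 7 fits (between them those without LT-HSC replicates 1, 2, 3 and 4 and MPP2 replicates 1 and 2), with adjusted p up to 0.103. Leaving out an MPP2 library cannot change the fitted difference of a gene without MPP2 reads, so passing those fits says little about it. Of the 10 genes edgeR called Lrrn4 alone (adjusted p = 0.0311), and the others had 0.0547 for Fscn1 to 0.161 for Slc17a8. DESeq2 called all 10, with adjusted p up to 0.0036.

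Further genes were almost absent from MPP2. Evc2 (Ensembl ENSMUSG00000050248; chromosome 5, 37338499 to 37425055, plus strand), a ciliary protein of Hedgehog signalling, had 105, 231, 88.1 and 145 in LT-HSC and 0, 0 and 1.18 in MPP2, and its adjusted p was the smallest of the comparison (-6.69 ± 0.64, SE, limma adjusted p = 7.89e-05). Plk2, a polo-like kinase of early G1, had 238, 442, 464 and 558 in LT-HSC and 2.62, 9.01 and 2.36 in MPP2, with a log2 difference of -6.36 ± 0.85 (SE; limma adjusted p = 0.00122). Map1b, a microtubule-associated protein, had 114, 86.4, 107 and 62.5 in LT-HSC and 1.75, 0 and 0 in MPP2, and Snrpn, an imprinted splicing-factor gene, 105, 65.5, 56.2 and 71.4 in LT-HSC and 0.874, 0 and 0 in MPP2. MPP2 values of these 4 genes did not exceed 9.01 normalized counts, and all 4 passed in every leave-one-out fit. Arhgef26, an exchange factor for RHOG, had 43.96, 39.9, 41.4 and 104 in LT-HSC and 0.874, 0 and 0 in MPP2. Runx1t1, a corepressor, had 327, 122, 347 and 151 in LT-HSC and 0, 16.01 and 1.18 in MPP2. Their log2 differences were -5.44 and -6.01, with limma adjusted p = 0.00352 and 0.0111. Arhgef26 passed in every leave-one-out fit, and Runx1t1 was lost without MPP2 replicate 1 (adjusted p = 0.0605).

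A second group of lower genes stayed well read in MPP2. Art4, a glycosylphosphatidylinositol-anchored ADP-ribosyltransferase that carries a blood group, had 1355, 1504, 1176 and 1107 in LT-HSC and 34.97, 249 and 233 in MPP2, with a log2 difference of -3.32 ± 0.57 (SE; limma adjusted p = 0.0111). Coq8a, which supports coenzyme Q synthesis, had 1346, 1860.2, 1665 and 1606 in LT-HSC and 569, 349 and 877 in MPP2, and Bex1, a small adaptor protein, 1012, 1018, 847 and 929 in LT-HSC and 321, 186 and 454 in MPP2. Zfand5, a zinc-finger protein of the proteasome pathway, had 4999.7, 3657, 3819 and 3616 in LT-HSC and 2307, 2144 and 2014 in MPP2. Each of these was lower in every MPP2 library than in any LT-HSC library. Limma gave -1.52 ± 0.28, -1.66 ± 0.31 and -0.89 ± 0.17 for the last 3 (SE; adjusted p = 0.016, 0.0171 and 0.0203). They were lost in 3 to 4 of the 7 fits (between them those without LT-HSC replicates 2 and 3 and MPP2 replicates 1 and 2), with adjusted p up to 0.0874, and Art4 was lost in none. The processed pseudogene Gm7676 was also lower (-1.68, limma adjusted p = 0.0158), and reads of its parent gene could be counted in it.

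The called genes of the cell-division lists were higher in MPP2, except Ccnd2 and Cdkn1c. Plk2, described above and on none of these lists, was also lower. A cell copies its DNA in S phase and separates the copies in mitosis. E2F factors bind promoters of S-phase genes, and the DREAM and MMB complexes bind the CHR element of mitotic genes, often beside CCAAT boxes bound by NF-Y. Of 61 tested genes of mitosis and kinetochore, 4 were higher in MPP2 and none was lower, with a median log2 difference of 1.06. Of the 61 genes, 60 were fitted above 0 and 30 had all MPP2 libraries above all LT-HSC libraries. Of 38 DNA replication genes none passed, yet all 38 were fitted above 0, with a median of 0.63, and 22 had an unadjusted limma p under 0.05, against the 4.81% above. Of 25 genes of nucleotide synthesis 2 were higher, with a median of 0.39. Of 47 tested replication-dependent histone genes none passed, with a median of 1.08. With the library-number run as a term, limma called 21 mitosis, 5 replication, 4 nucleotide and 5 histone genes higher. Of all 17160 genes tested, limma called 145 higher with this term. Without WT LT-HSC replicate 4 it called 1 mitosis gene higher, against 23 of all genes tested.

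The promoters of 4 higher genes of this group are shown because each holds letters of a cell-cycle element. They are the 250 bases before the RefSeq transcript start (GRCm38.p6), on the gene's strand from 5′ to 3′, with matches in capitals.
Cks1b, chr3:89418292-89418541, minus strand: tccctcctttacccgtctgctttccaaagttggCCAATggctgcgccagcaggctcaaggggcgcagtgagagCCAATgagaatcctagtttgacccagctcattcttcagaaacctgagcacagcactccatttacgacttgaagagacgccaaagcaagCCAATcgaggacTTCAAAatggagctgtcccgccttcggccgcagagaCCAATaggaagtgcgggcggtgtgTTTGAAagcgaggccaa
Smc2, chr4:52438971-52439220, plus strand: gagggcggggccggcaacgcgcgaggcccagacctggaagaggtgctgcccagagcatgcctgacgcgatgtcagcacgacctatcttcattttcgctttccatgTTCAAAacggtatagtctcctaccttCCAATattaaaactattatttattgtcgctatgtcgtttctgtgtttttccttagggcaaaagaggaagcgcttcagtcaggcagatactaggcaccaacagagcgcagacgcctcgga
Ncapg2, chr12:116405186-116405435, plus strand: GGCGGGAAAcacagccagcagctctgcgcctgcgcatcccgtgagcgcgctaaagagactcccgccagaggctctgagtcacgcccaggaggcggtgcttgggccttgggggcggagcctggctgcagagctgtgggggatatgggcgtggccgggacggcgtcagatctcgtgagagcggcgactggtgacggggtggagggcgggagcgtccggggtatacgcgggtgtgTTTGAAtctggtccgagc
Nasp, chr4:116627952-116628201, minus strand: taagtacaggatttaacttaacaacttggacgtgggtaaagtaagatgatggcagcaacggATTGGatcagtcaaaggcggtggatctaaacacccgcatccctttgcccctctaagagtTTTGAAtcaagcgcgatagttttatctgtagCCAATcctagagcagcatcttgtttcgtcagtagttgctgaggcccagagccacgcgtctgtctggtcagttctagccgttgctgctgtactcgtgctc
The capitals in Cks1b are 4 CCAAT boxes and 2 CHR matches (TTCAAA and TTTGAA), and those in Smc2 are a CHR match (TTCAAA) and a CCAAT box. Ncapg2 opens with 2 overlapping E2F matches (GGCGGGAA and GCGGGAAA) and ends with a CHR match (TTTGAA). Nasp has a CCAAT box on each strand (ATTGG and CCAAT) and a CHR match (TTTGAA).

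The E2F letters searched were TTTCCCGC, TTTGGCGC, TTTCGCGC and TTCCCGCC, the CHR letters TTTGAA and TTCGAA, and the box CCAAT, each on both strands. TTTCCCGC and TTCCCGCC overlap each other by 7 letters. Of 30 replication genes with a promoter in the RefSeq table, 11 (36.67%) held an E2F match, against 6.13% of 11006 tested genes with a promoter and 3.36% of all 27025 promoter genes. Of 52 mitotic genes, 22 (42.31%) held a CHR match and 36 (69.23%) a CCAAT box. Among the 11006 tested genes 15.17% held a CHR match and 40.11% a CCAAT box, and among all promoter genes 19.55% and 37.49%. For the 38 genes higher in MPP2 that had an entry, the counts were 4 with E2F (10.53%), 8 with CHR (21.05%) and 13 with CCAAT letters (34.21%). No match was found in this window for Tyms, Cdk6, Dut, Knl1, Mad2l1 or Atad5. A match describes letters and not binding.

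Cdk6 (Ensembl ENSMUSG00000040274; chromosome 5, 3341485 to 3531008, plus strand), the G1 kinase that helps release stem cells from quiescence, had 7207, 6055, 4739 and 7261 in LT-HSC and 12885, 11001 and 10629.7 in MPP2. The groups did not overlap, with a log2 difference of 0.88 ± 0.15 (SE; limma adjusted p = 0.0111). Its partner cyclin D2 went the other way: Ccnd2 had 7054, 9064, 8834 and 9346 in LT-HSC and 5568, 4623 and 4795 in MPP2, with a log2 difference of -0.78 ± 0.14 (SE; limma adjusted p = 0.0111). Cdkn1c, the imprinted gene of the cell-cycle inhibitor p57 that holds stem cells in quiescence, had 508, 752, 434 and 421 in LT-HSC and 55.9, 58.04 and 60.2 in MPP2. MPP2 values were nearly identical and far below LT-HSC (-3.12 ± 0.64, SE, limma adjusted p = 0.028). Of 15 G1 cyclins and kinases, Cdk6 and Ccnd2 were the calls, with a list median of 0.46. Of the 8 tested inhibitors and pocket proteins, Cdkn1c was the single call, and the list median was -0.04. Cdk6 was lost without MPP2 replicate 1 (adjusted p = 0.0602), Ccnd2 without MPP2 replicate 2 (0.0629), and Cdkn1c in 5 of the 7 fits (between them those without LT-HSC replicates 2, 3 and 4 and MPP2 replicates 1 and 2), with adjusted p up to 0.0934.

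In S phase, Dut, which removes dUTP, had 3641, 4100.2, 3339 and 3442 in LT-HSC and 6578, 8205 and 6018 in MPP2, and Tyms, which makes the thymidylate of DNA, 2736, 2038, 1539 and 2623 in LT-HSC and 5483, 3747 and 3784 in MPP2. Limma gave 0.93 ± 0.17 and 0.97 ± 0.18 (SE; adjusted p = 0.0137 and 0.0171). Pclaf, a PCNA-binding protein, had 1972, 1051, 524 and 767 in LT-HSC and 4032, 2638 and 3597 in MPP2, with a log2 difference of 1.82 ± 0.31 (SE; limma adjusted p = 0.0111). All 3 were higher in every MPP2 library than in any LT-HSC library. Pcna, the replication clamp, had 2775, 2203, 1957 and 2174 in LT-HSC and 4033, 3149 and 3916 in MPP2 and Rrm2, a ribonucleotide reductase subunit, 2785, 1497, 922 and 1782 in LT-HSC and 7800.4, 2881 and 3672 in MPP2. Both were apart between the groups and short of the threshold (limma adjusted p = 0.0665 and 0.0602). Gmnn, the licensing inhibitor geminin, Nasp, a histone chaperone, and Atad5, which unloads the clamp, were higher by 0.89, 0.90 and 1.36 (limma adjusted p = 0.0353, 0.0381 and 0.0276). Pclaf, Gmnn, Nasp and Atad5 are not on the DNA replication list counted above, of which none passed. Gmnn and Nasp were added after their values were seen. Dut was lost without MPP2 replicate 2 (adjusted p = 0.0759), Pclaf without MPP2 replicate 1 (0.0605), Tyms without LT-HSC replicate 2 (0.0515) or MPP2 replicate 1 (0.0886), and Gmnn, Nasp and Atad5 in 5 to 6 of the 7 fits (between them those without LT-HSC replicates 1, 2, 3 and 4 and MPP2 replicates 1, 2 and 3), with adjusted p up to 0.128.

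In mitosis, the condensin subunit Smc2 (Ensembl ENSMUSG00000028312; chromosome 4, 52439243 to 52488260, plus strand) had 3253, 1971, 1971 and 2271 in LT-HSC and 4741, 5914 and 5240.4 in MPP2, with a log2 difference of 1.19 ± 0.20 (SE; limma adjusted p = 0.0111). Its partner Smc4 had 7385, 4511, 4001 and 4047 in LT-HSC and 10399, 8567 and 11072 in MPP2, with a log2 difference of 1.05 ± 0.23 (SE; limma adjusted p = 0.039), and Ncapg2, a subunit of condensin II, had 613, 580.2, 422 and 286 in LT-HSC and 1671, 999 and 1539 in MPP2, with a log2 difference of 1.59 ± 0.28 (SE; limma adjusted p = 0.0111). All 3 condensin genes were separated between the groups. Cks1b, a small subunit of cyclin-dependent kinases, had 3969, 3937, 2648 and 2571 in LT-HSC and 5905, 7448 and 7077 in MPP2, with a log2 difference of 1.08 ± 0.20 (SE; limma adjusted p = 0.016). Knl1, a kinetochore scaffold, had 1045, 524, 439 and 392 in LT-HSC and 1681, 3446 and 2122 in MPP2, and Mad2l1, a spindle-checkpoint protein, 2362, 1233, 1261 and 1351 in LT-HSC and 3487, 3237 and 4197 in MPP2. Their differences were 2.06 ± 0.45 and 1.28 ± 0.27 (SE; limma adjusted p = 0.0348 and 0.032). Mis18a, which loads centromeric histone, and Fbxo5, an inhibitor of the anaphase-promoting complex, were higher by 0.98 and 1.34 (limma adjusted p = 0.0227 and 0.028). The mitosis list counted above holds 4 calls, so not all called genes of this paragraph are on it. Fbxo5 was added after its values were seen.

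Proliferation markers in wide use did not pass. Mki67 had 2619, 2276, 1213 and 1397 in LT-HSC and 3813, 4384 and 3489.7 in MPP2, Top2a 5834, 3549, 2202 and 2938 in LT-HSC and 8905, 8618 and 7245 in MPP2 and Ccna2 3618, 2753, 1897 and 1994 in LT-HSC and 6165, 6147 and 5444 in MPP2. All 3 were apart between the groups, with limma adjusted p = 0.0657, 0.0598 and 0.0537. With 1 library left out, Ncapg2 was lost without MPP2 replicate 1 (adjusted p = 0.0605), Smc2 without MPP2 replicate 2 (0.0628) and Cks1b without LT-HSC replicate 3 (0.0565) or MPP2 replicate 2 (0.0759). Smc4, Knl1, Mad2l1, Mis18a and Fbxo5 were lost in 5 to 6 of the 7 fits (between them those without LT-HSC replicates 2, 3 and 4 and MPP2 replicates 1, 2 and 3), with adjusted p up to 0.16. LT-HSC replicate 1 was the highest LT-HSC library for Smc2, Smc4, Knl1, Mad2l1, Mki67, Top2a and Ccna2. Of the 47 tested histone genes, 45 were fitted above 0 and 2 below. Hist1h1b, a linker histone, had 141, 284, 116 and 84.8 in LT-HSC and 708, 836 and 379 in MPP2. Hist1h2bc, which also gives polyadenylated transcripts, went the other way, with 1166, 833, 1084 and 674 in LT-HSC and 222, 302 and 457 in MPP2. Neither passed (limma adjusted p = 0.0986 and 0.0721).

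**Figure D2:**
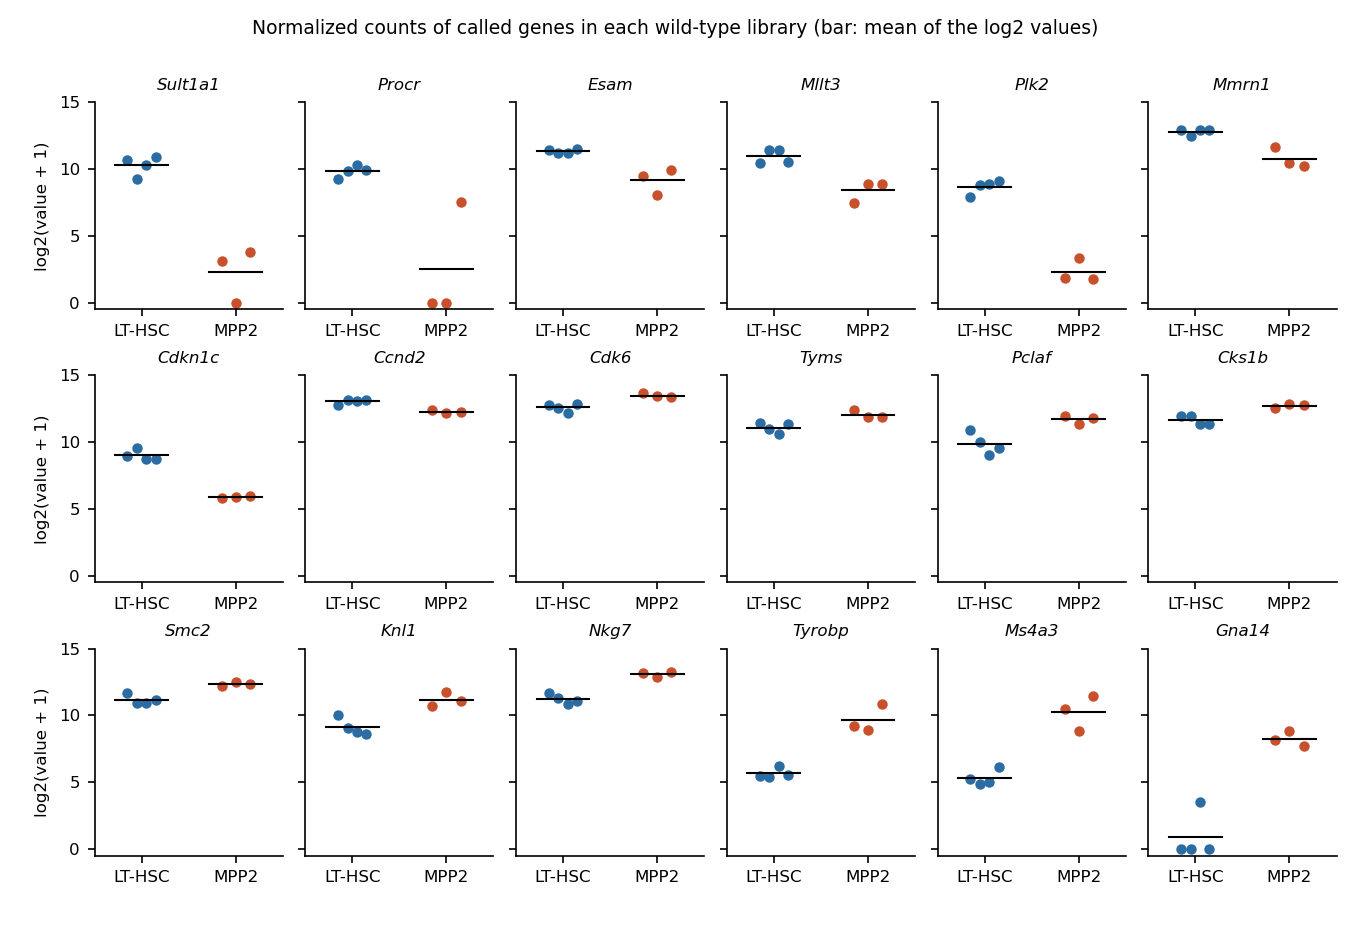
log2(normalized count + 1) of 18 called genes, 1 panel per gene, with 1 point for each of the 4 LT-HSC and 3 MPP2 wild-type libraries and a bar at the mean of the log2 values of a group. The points of the groups do not overlap in any panel, and MPP2 replicate 3 gives the high MPP2 point of Procr.

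The called genes of myeloid granules were all higher in MPP2. Of 23 tested genes of primary granules and the promyelocyte stage, 6 were higher and none was lower, with a median log2 difference of 1.55. Without MPP2 replicate 3 the same list gave 3 higher and 2 lower, with a median of 1.19, and without LT-HSC replicate 4 it gave 3 higher and none lower. Over all genes tested these fits called 55 higher and 229 lower without MPP2 replicate 3, and 23 and 49 without LT-HSC replicate 4. Of 22 tested genes of monocytes, macrophages and dendritic cells none passed (median 0.92, summed level 3888 to 11078 in LT-HSC and 3676 to 29541 in MPP2). Of 17 tested genes of mature neutrophils none passed (median 1.15, summed level 748 to 18252 and 919.6 to 8951). MPP2 replicate 2 held the highest of the MPP2 sums of neutrophil genes, although Ltf, the lactoferrin gene, had no read in MPP2. The part of such cells in the granule genes was not tested.

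Nkg7 (Ensembl ENSMUSG00000004612; chromosome 7, 43437073 to 43438249, plus strand), a granule membrane protein, had 3248, 2546, 1837 and 2202 in LT-HSC and 9426, 7390.2 and 9808 in MPP2. The groups were separated, with a log2 difference of 1.87 ± 0.31 (SE; limma adjusted p = 0.00926). Tyrobp, a signalling adaptor of myeloid receptors, had 43.96, 40.8, 72.2 and 46.4 in LT-HSC and 597, 482 and 1837 in MPP2, with a log2 difference of 4.002 ± 0.66 (SE; limma adjusted p = 0.00926). Cst7, an inhibitor of granule cathepsins, had 24.7, 54.1, 23.3 and 13.4 in LT-HSC and 727, 737 and 1249 in MPP2, and Ms4a3, a marker of granulocyte and monocyte progenitors, 37.6, 28.5, 31.8 and 69.6 in LT-HSC and 1403, 449 and 2784 in MPP2. Limma gave 5.04 ± 0.98 and 4.91 ± 0.99 (SE; adjusted p = 0.0207 and 0.0256). Plac8, a myeloid and lymphoid progenitor gene, had 761, 902, 3109 and 804 in LT-HSC and 4693, 4968 and 23100.0 in MPP2, with a log2 difference of 2.83 ± 0.59 (SE; limma adjusted p = 0.028). Of 21 tested myeloid fate regulators 1 was higher (median -0.03): Fcgr3, a receptor for immunoglobulin G, had 0, 22.8, 18.04 and 0 in LT-HSC and 208, 97.1 and 651 in MPP2, with a log2 difference of 5.68 ± 1.18 (SE; limma adjusted p = 0.0283).

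Protease and peroxidase genes varied between the MPP2 libraries. Ctsg, cathepsin G, had 0, 0, 0 and 0 in LT-HSC and 1129, 10.01 and 3434 in MPP2: no LT-HSC library had a read, and MPP2 replicate 2 had few (8.45 ± 1.90, SE, limma adjusted p = 0.0425). Mpo, myeloperoxidase, had 28.4, 0.950, 143 and 0.892 in LT-HSC and 22559, 105 and 41133 in MPP2. MPP2 replicates 1 and 3 were high, replicate 2 lay below LT-HSC replicate 3, and the difference was not called (8.69 ± 2.06, limma adjusted p = 0.0547). Ly6c2, a monocyte and granulocyte surface gene, had 0, 46.5, 0 and 0 in LT-HSC and 1745, 75.1 and 5828 in MPP2, with a limma adjusted p of 0.0643. Nkg7 and Tyrobp passed in all 7 leave-one-out fits. Cst7, Ms4a3, Plac8, Fcgr3 and Ctsg were lost in 4 to 6 of the 7 fits (between them those without LT-HSC replicates 1, 2, 3 and 4 and MPP2 replicates 1, 2 and 3), with adjusted p up to 0.158.

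Some genes read in MPP2 were nearly unread in LT-HSC, and apart from Gna14 they were picked after their values were seen. Gna14, a G-protein alpha subunit, had 0, 0, 10.6 and 0 in LT-HSC and 282, 448 and 208 in MPP2, with a log2 difference of 7.34 ± 1.03 (SE; limma adjusted p = 0.002). Siglecf, a sialic-acid receptor of eosinophils, had 0, 41.8, 0 and 0 in LT-HSC and 315, 298 and 490.3 in MPP2, Scin, an actin-severing protein, 0, 0, 0 and 0 in LT-HSC and 122, 424 and 258 in MPP2, and Mpeg1, a pore-forming protein of phagocytes, 0, 0, 13.8 and 0 in LT-HSC and 98.8, 110.1 and 278 in MPP2. In each of the 4 genes at most 1 LT-HSC library had a read, and all MPP2 libraries were above it. Limma gave adjusted p = 0.0155, 0.0221 and 0.00122, and, against a floor of 3 reads over the group, Scin was at least 337-fold higher. Tifab, an inhibitor of TRAF6 signalling, had 0, 0, 1.06 and 0 in LT-HSC and 20.1, 124 and 332 in MPP2, Gpr174, a lysophosphatidylserine receptor, 0, 0, 0 and 4.46 in LT-HSC and 62.9, 20.01 and 133 in MPP2, and Atp8b4, a putative lipid flippase, 0, 37.03, 0 and 0 in LT-HSC and 372, 103 and 794 in MPP2. Their differences were 6.32, 5.21 and 6.98 (limma adjusted p = 0.0178, 0.0204 and 0.0497). Gna14 and Mpeg1 passed in all 7 leave-one-out fits, and the other 5 were lost in 2 to 6 of the 7 fits (between them those without LT-HSC replicates 1, 2, 3 and 4 and MPP2 replicates 1, 2 and 3), with adjusted p up to 0.136.

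Among mast-cell and basophil genes, 14 were tested and none passed, although the list median was 2.59. Cpa3, the mast-cell carboxypeptidase, had 294, 18.99, 119.9 and 176 in LT-HSC and 867, 812 and 1714 in MPP2, apart between the groups with a limma adjusted p of 0.0763. The summed level of the list was 8393 to 10719.6 in LT-HSC and 8792 to 10642 in MPP2. The proteases Mcpt4, Cma1, Tpsb2 and Tpsab1 and the eosinophil genes Epx, Ear1 and Il5ra had no read in any of the 7 libraries.

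Further higher genes with ample reads belong to signalling and metabolism. Hint1 (Ensembl ENSMUSG00000020267; chromosome 11, 54866383 to 54870501, plus strand), a nucleotide hydrolase, had 6317, 5877, 5605 and 5748 in LT-HSC and 8359, 9248 and 9497 in MPP2. The difference was small and the libraries of each group were close, with a log2 difference of 0.62 ± 0.10 (SE; limma adjusted p = 0.00926). Ubash3a, a phosphatase-related regulator of receptor signalling, had 8.24, 82.6, 28.6 and 51.8 in LT-HSC and 301, 854 and 625 in MPP2, with a log2 difference of 4.04 ± 0.67 (SE; limma adjusted p = 0.00926). Adgrg3, an adhesion receptor of granulocytes, had 604, 919, 723 and 825 in LT-HSC and 2574, 2119.5 and 3249.9 in MPP2, Clec4d, a C-type lectin of myeloid cells, 118, 52.2, 201 and 39.3 in LT-HSC and 395, 741 and 589 in MPP2, and Bin1, a membrane-curvature protein, 282, 245, 242 and 267 in LT-HSC and 717, 517 and 751 in MPP2. Dock10, an exchange factor for CDC42, had 591, 951, 692 and 617 in LT-HSC and 1414, 1451 and 1974 in MPP2, and Pip4k2a, a phosphoinositide kinase, 542, 448, 407 and 626 in LT-HSC and 1449, 909 and 1022 in MPP2. These 5 were separated between the groups (log2 differences 1.78, 2.72, 1.33, 1.19 and 1.14, limma adjusted p = 0.0249, 0.0203, 0.0171, 0.0204 and 0.0207). Hint1 passed in every leave-one-out fit, Ubash3a was lost without MPP2 replicate 2 (adjusted p = 0.0559), and the 5 others were lost in 3 to 5 of the 7 fits (between them those without LT-HSC replicates 2, 3 and 4 and MPP2 replicates 1, 2 and 3), with adjusted p up to 0.102.

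Platelet and red-cell genes gave 1 call between them. Of 27 tested megakaryocyte and platelet genes 1 was lower and none was higher, with a median log2 difference of -0.04. The call was Mmrn1 (Ensembl ENSMUSG00000054641; chromosome 6, 60924976 to 60989378, plus strand), multimerin of platelet granules, with 7826, 5582, 7618 and 7741 in LT-HSC and 3261, 1403 and 1171 in MPP2. Every MPP2 library was below every LT-HSC library, with a log2 difference of -2.02 ± 0.32 (SE; limma adjusted p = 0.00653), and the call held in all 7 leave-one-out fits. Pf4, platelet factor 4, had 12589.5, 14202, 989.99 and 8049 in LT-HSC and 31814, 21478 and 1374 in MPP2, and Gp1bb, a subunit of the von Willebrand receptor, 1030.3, 1848, 28.6 and 1073 in LT-HSC and 1416, 1701 and 28.4 in MPP2. In both, the low libraries were LT-HSC replicate 3 and MPP2 replicate 3, which share a library-number run, and all other libraries of both groups were above them (limma adjusted p = 0.897 and 0.979). Without the libraries numbered 52 to 54, the median of the list was 0.66, and without MPP2 replicate 3 it was 1.02. The part of the run in the platelet genes was not tested.

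Of 28 tested erythroid genes none passed, with a median of 1.22, and 26 were fitted above 0. Car1, carbonic anhydrase 1 of early red cells, had 0, 18.04, 3082 and 0 in LT-HSC and 1989, 66130.0 and 7708 in MPP2, and Klf1, the erythroid master regulator, 213, 246, 344 and 258 in LT-HSC and 1088, 4793 and 724 in MPP2. MPP2 replicate 2 was the highest library for both, and for Klf1 every MPP2 library was above every LT-HSC library (limma adjusted p = 0.312 and 0.634). The summed level of the erythroid list was 36162 to 57691 in LT-HSC and 43249 to 169826 in MPP2. The 3 MPP2 libraries differed in these genes: replicate 2 had the highest Car1 and Klf1, replicates 1 and 3 the high Mpo, and replicate 3 the immunoglobulin transcripts.

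**Figure D3:**
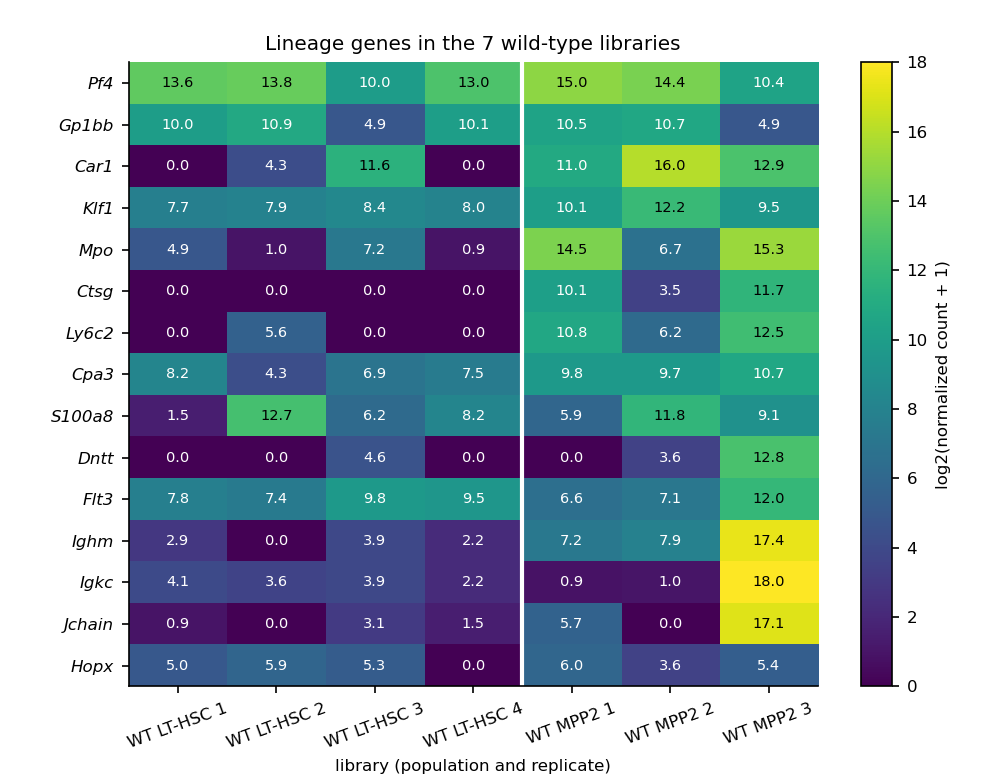
log2(normalized count + 1), as colour, of lineage genes (one per line) in the 4 LT-HSC and 3 MPP2 wild-type libraries (columns). MPP2 replicate 3 has the highest values of Igkc, Ighm, Jchain and Dntt and MPP2 replicate 2 those of Car1 and Klf1, while Pf4 and Gp1bb are lowest in replicate 3 of both populations.

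Igkc, Jchain and Dntt were high in 1 library. Ighm, the immunoglobulin mu chain, had 6.41, 0, 13.8 and 3.57 in LT-HSC and 145, 235 and 176989 in MPP2, Igkc, the kappa chain, 15.6, 11.4, 13.8 and 3.57 in LT-HSC and 0.874, 1.001 and 267435 in MPP2, and Jchain, the joining chain of plasma cells, 0.916, 0, 7.43 and 1.78 in LT-HSC and 50.7, 0 and 140605 in MPP2. Dntt, the polymerase of early lymphoid cells, had 0, 0, 23.3 and 0 in LT-HSC and 0, 11.01 and 7258 in MPP2. MPP2 replicate 3 had the highest level of all 4 genes. Ighm was also above every LT-HSC library in MPP2 replicates 1 and 2. None was called (limma adjusted p = 0.092, 0.787, 0.318 and 0.475). Of 12 tested B, T and NK cell genes none passed, and of 23 early lymphoid genes Ltb alone passed, as lower. Without MPP2 replicate 3 the medians of these lists were -0.50 and 0.09, against 0.69 and 0.72 with it. The T-cell genes Cd3e, Cd3g and Cd8a and the granzyme gene Gzma had no read in any of the 7 libraries, while the T-cell receptor genes Trac and Trbc2 had at most 7.005 normalized counts in any of them. Of the 9 tested genes of stroma and endothelium none passed.

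The called genes of cytokine and stress signalling were all lower in MPP2. Of 22 tested immediate early genes none passed, but 21 were fitted below 0, with a median of -1.53, and 9 were separated between the groups. Ppp1r15a, a stress-induced phosphatase subunit, had 4708, 5618, 2911 and 6153 in LT-HSC and 1941, 1214 and 553 in MPP2, Zfp36, which degrades cytokine messages, 2973, 8436, 3266 and 4445 in LT-HSC and 1789, 852 and 1055 in MPP2, and Nr4a1, a nuclear receptor, 871, 1322, 196 and 1111 in LT-HSC and 125, 36.03 and 11.8 in MPP2. All 3 were apart, with limma adjusted p = 0.0574, 0.0626 and 0.0748. With the library-number run as a term, limma called 9 of the 22 lower, against 219 of all 17160 genes tested. It called 3 lower with a pseudocount of 16, against 184 of all genes tested, and 3 without the libraries numbered 52 to 54, against 124. Without WT LT-HSC replicate 4 or without WT MPP2 replicate 3 it called none.

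Of 24 tested genes of the TNF and NF-kB pathway, 2 were lower and none was higher (median -0.70). Ltb, the lymphotoxin beta ligand, had 653, 955, 1514 and 694 in LT-HSC and 63.8, 48.03 and 189 in MPP2, with a log2 difference of -3.41 ± 0.64 (SE; limma adjusted p = 0.0171). Nfkbiz, a nuclear inhibitor of the pathway, had 329, 449, 397 and 815 in LT-HSC and 133, 65.05 and 126 in MPP2, with a log2 difference of -2.17 ± 0.49 (SE; limma adjusted p = 0.0446). Of 29 tested interferon-response genes 1 was lower (median -0.58): Ifitm1, an antiviral membrane protein high in stem cells, had 7706, 10733, 14626 and 10446 in LT-HSC and 2008, 1907 and 4584 in MPP2, with a log2 difference of -2.03 ± 0.35 (SE; limma adjusted p = 0.0111). Of 16 genes of cytokine feedback 1 was lower (median -0.64): Cish, a target and inhibitor of STAT5, had 1473, 1101, 2035 and 2432 in LT-HSC and 732, 231 and 152 in MPP2, with a log2 difference of -2.51 ± 0.54 (SE; limma adjusted p = 0.0329). Every MPP2 library was below every LT-HSC library in these 4 genes. Ifitm1 was lost without MPP2 replicate 1 (adjusted p = 0.0605) or replicate 2 (0.0687), and Ltb, Nfkbiz and Cish in 4 to 5 of the 7 fits (between them those without LT-HSC replicates 2, 3 and 4 and MPP2 replicates 1, 2 and 3), with adjusted p up to 0.184. Of 30 cytokine receptor genes none passed (median -0.20).

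Among 8 tested Schlafen genes, regulators of quiescence and antiviral defence, 1 was lower. Slfn2 had 702, 997, 1216 and 1404 in LT-HSC and 2.62, 72.1 and 182 in MPP2, with a log2 difference of -4.84 ± 0.83 (SE; limma adjusted p = 0.0111), and it passed in all 7 leave-one-out fits. Slfn5 had 161, 22.8, 115 and 122 in LT-HSC and 0, 0 and 5.91 in MPP2, apart but not called (limma adjusted p = 0.103). Of 33 tested Wnt, TGF-beta and BMP genes, Sfrp1 was the single call, as lower, and the median was -0.79. Of 13 tested imprinted genes 2 were lower, Snrpn and Cdkn1c, with a median of -1.48 and 12 of 13 fitted below 0.

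Metabolic lists gave few calls. Of 65 nuclear-encoded respiratory chain genes 1 was higher, with a median of 0.34, and 62 were fitted above 0. An unadjusted limma p under 0.05 was reached by 28 of the 65 as higher, against 4.81% of all genes tested. All MPP2 libraries lay above all LT-HSC libraries for 14 of the 65, against 4.66%. With the library-number run as a term 5 were higher, against 145 of all 17160 genes tested. Cox5a, a subunit of cytochrome c oxidase, had 6395, 5262, 4252 and 4251 in LT-HSC and 7036, 8883 and 8879 in MPP2, with a log2 difference of 0.73 ± 0.15 (SE; limma adjusted p = 0.0282). Slc25a5, the ADP/ATP carrier, is not the call of this list and was added after its values were seen. It had 12619.7, 12953, 10500.5 and 9714 in LT-HSC and 15602, 17259 and 16643 in MPP2, with a log2 difference of 0.54 ± 0.12 (SE; limma adjusted p = 0.0403). Cox5a and Slc25a5 were separated between the groups and lost in 5 of the 7 fits (between them those without LT-HSC replicates 2, 3 and 4 and MPP2 replicates 1, 2 and 3), with adjusted p up to 0.14 when 1 library was left out. Of 8 tested genes of the mitochondrial genome none passed: mt-Nd1 had 66890.3, 38476, 52667 and 38043 in LT-HSC and 45351, 58277 and 127343 in MPP2, highest in MPP2 replicate 3. Of 18 glycolysis genes and of 26 nucleolar genes none passed (medians -0.21 and 0.17). Of 35 lysosome and autophagy genes 2 were lower (median -0.17), Gabarapl1, an autophagosome protein, with 2159.6, 3121, 2554 and 3053 in LT-HSC and 1272, 1138 and 1109 in MPP2, and Ctsf, cathepsin F, with 376, 464, 709.9 and 499.7 in LT-HSC and 24.5, 50.04 and 224 in MPP2. Limma gave -1.20 ± 0.24 and -2.91 ± 0.58 (SE; adjusted p = 0.0227 and 0.0247), and both were lost in 5 of the 7 fits (between them those without LT-HSC replicates 2, 3 and 4 and MPP2 replicates 1 and 2), with adjusted p up to 0.111.

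**Figure D4:**
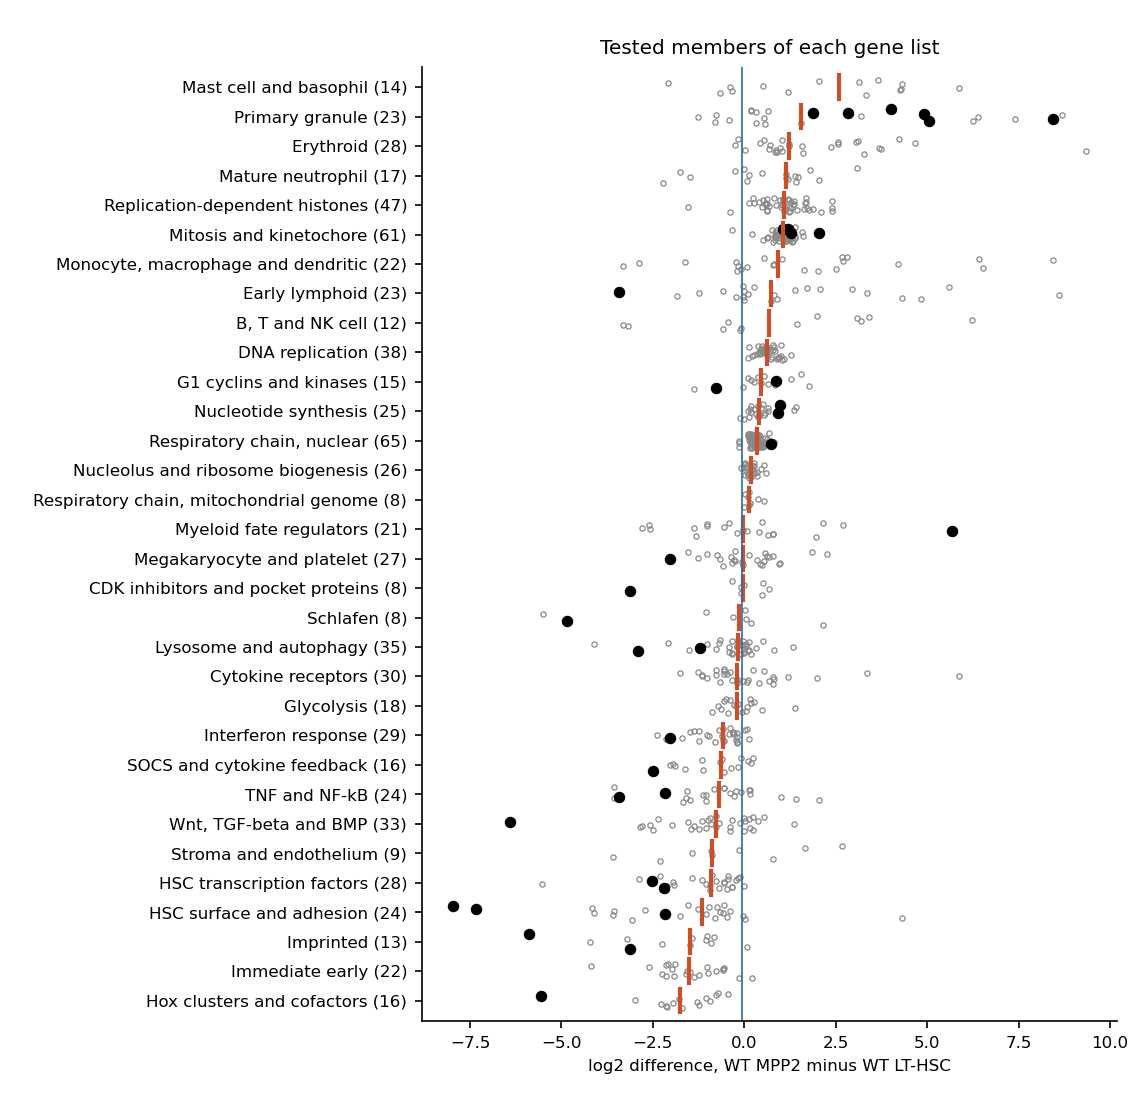
Fitted MPP2 minus LT-HSC log2 differences of the tested members of each gene list in wild-type libraries. Each point is a gene (filled where called), a red bar marks the list median, and the blue line marks the median of all genes tested (-0.07). Immediate early genes lie mostly below 0 (median -1.53) and mitosis and replication genes mostly above 0 (medians 1.06 and 0.63).

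The same contrast in the KO libraries, which share no library with the WT contrast, was a second look at the 143 genes. It compared 3 KO MPP2 with 3 KO LT-HSC libraries in the same fit, so the 2 contrasts share the estimate of spread. Of the 143 genes, 142 had the same sign in KO and 122 (85.3%) also had an unadjusted limma p under 0.05. By direction these were 40 of 48 higher genes, where 4.63% of all tested genes passed, and 82 of 95 lower genes, where 12.6% passed. With adjusted p, 8 higher and 39 lower genes passed in KO, against 0.117% and 1.08% of all tested genes. The median KO difference was 1.05 for the higher and -3.45 for the lower genes.

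Gna14 had 6.73 ± 11.7 in KO LT-HSC and 482 ± 127 in KO MPP2 (SD, n = 3 each), a log2 difference of 7.41 ± 1.10 (SE; limma adjusted p = 0.0034). Procr had 602 ± 387 and 3.26 ± 5.64, with -7.89 ± 1.41 (0.0111 by limma), and Sult1a1 688 ± 316 and 6.83 ± 11.02, with -7.56 ± 1.04 (0.00268 by limma). These 3 genes had KO differences close to those in WT. The exception in sign was Pdgfrl, a receptor-like protein, with -4.06 in WT and 0.08 in KO. Lrrn4 (-6.16 in WT, -1.005 in KO), Ptges (-5.64 and -0.18), Arhgef26 (-5.44 and -0.77) and Pip4k2a (1.14 and 0.12) were also among those that did not pass in KO.

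The test of the difference between the contrasts depended on the tool. Limma's interaction of genotype and cell type called 0 genes at an adjusted p under 0.05, with 636 genes (3.71%) under an unadjusted 0.05, 15 of them among the 143. DESeq2 called 41 genes and edgeR 0 for the same interaction. The WT and KO contrasts are therefore not shown to differ for Lrrn4, Ptges, Arhgef26, Pip4k2a or Pdgfrl by limma.

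**Figure D5:**
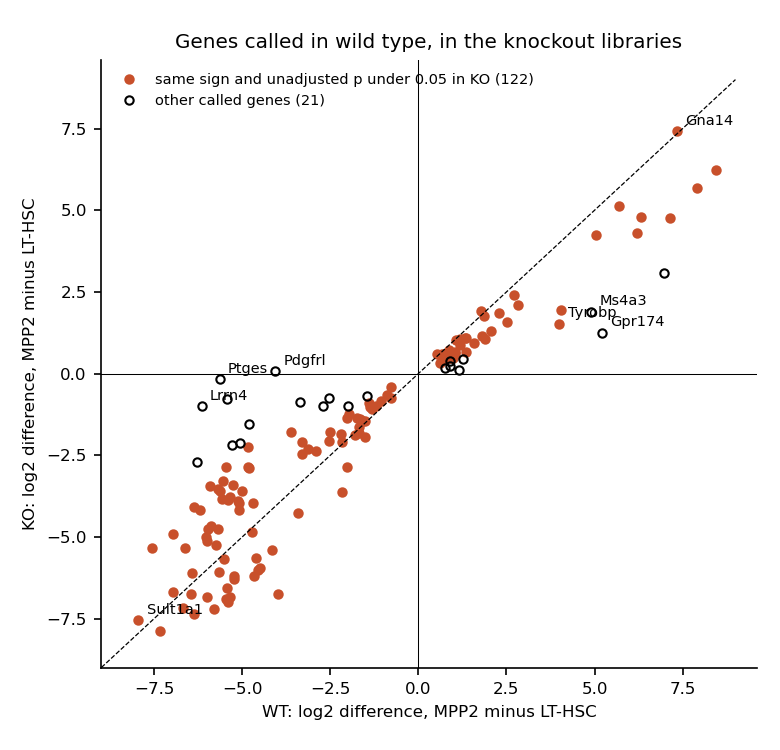
MPP2 minus LT-HSC log2 difference in wild-type libraries (horizontal axis) and in Hopx knockout libraries (vertical axis) for the 143 genes called in wild type. Filled points had the same sign and an unadjusted limma p under 0.05 in knockout (122 genes), and Pdgfrl alone lies across the line at 0.

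Across settings, 31 of the 143 genes also passed in each of 7 other ways of fitting all 20 libraries: edgeR, DESeq2, voom weights, TMM scaling, a pseudocount of 16, no filter, and the library-number run as a term. The 17 higher ones were Gna14, Hint1, Ubash3a, Nkg7, Cdk6, Smc2, Pclaf, Ncapg2, Dut, Cks1b, Tyms, Bin1, Dock10, Pip4k2a, Mis18a, Adgrg3 and Atad5. The 14 lower ones were Evc2, Sult1a1, Plk2, Lrrn4, Mmrn1, Art4, Ifitm1, Ccnd2, Mllt3, Gm7676, Coq8a, Bex1, Zfand5 and Gabarapl1. Of these 31, 9 also passed with any 1 of the 7 members left out: Gna14, Hint1 and Nkg7 as higher, and Evc2, Sult1a1, Plk2, Lrrn4, Mmrn1 and Art4 as lower. The limma fit of the 7 members alone was not among these settings. It kept Gna14, Nkg7, Adgrg3 and Atad5 as higher. As lower it kept Evc2, Sult1a1, Plk2, Lrrn4, Mmrn1, Ifitm1, Mllt3 and Gabarapl1, and the rest of the 31 missed. Of the 9, Hint1 and Art4 missed there (limma adjusted p = 0.0885 and 0.0624). Nkg7 missed without the libraries numbered 52 to 54 (limma adjusted p = 0.0568). Over the 143 genes, 23 passed in all 7 leave-one-out fits, 5 higher and 18 lower, and 7 passed in none.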

How the data were processed

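The libraries were grouped by genotype and cell type from the labels, and replicate numbers follow the order of deposition. They are not from the labels, but the titles put replicates 1, 2 and 3 of the WT populations side by side (library numbers 105 and 106, 116 and 117, 53 and 54). The labels do not say what a run of numbers shares. Per the submitters' processing notes, the authors used TopHat2 2.1.1, HTSeq 0.11.2, DESeq (no version given) and GRCm38. The deposited signal is a normalized count: within 1e-06, 100% of the values were whole multiples of the worth of 1 read in their library, and the edgeR, DESeq2 and voom alternatives were run on the reads this gave. Strand setting and annotation release: not given in the sources used here. Overlapping and antisense genes therefore cannot be told apart. The 5 summary entries that name no gene were left out.

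Genes passing edgeR's expression filter (17160 of 45706) were tested with limma 3.58.1 (R 4.3.3, trend and robust variance) on log2(value + 1), with 6 group means over all 20 libraries and Benjamini-Hochberg adjustment. edgeR 4.0.16 and DESeq2 1.42.0 served as alternatives. Positions are from GENCODE M21 and symbols matched 45143 identifiers.

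Named genes are called members of the gene lists, the 15 higher and 15 lower genes of smallest p whose mean log2 CPM reached 3 and whose groups do not overlap, up to 4 members of each list by p, and calls kept in all 7 other fits of the 20 libraries. Genes without reads in a group, and Map1b, Arhgef26, Runx1t1, Siglecf, Mpeg1, Tifab, Gpr174, Atp8b4, Gmnn, Nasp, Fbxo5, Slc25a5, Dek and Pdgfrl, were added after their values were seen. The comparison and the lists were chosen with earlier results of these data known.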

Additional observations from a re-analysis of the deposited data

Results flagged for a closer look

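Of 107 genes described above that were screened, 17 had 1 WT LT-HSC library whose gap to the nearest of the other 3 exceeded Dixon's 95% criterion for 4 samples. Chance gives such a library in about 1 in 20 groups. That rate does not apply where 3 of the 4 libraries had no read, because the criterion is then always exceeded. This was so for Siglecf, Tifab, Gpr174, Mpeg1, Gna14, Ly6c2, Dntt and Atp8b4. WT MPP2, with 3 libraries, was not screened. Values are normalized counts.

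LT-HSC replicate 4 stood apart for Arhgef26 (104), Gpr174 (4.46) and Hopx (0). LT-HSC replicate 2 stood apart for Mmrn1 (5582, the lowest), Siglecf (41.8), Ly6c2 (46.5) and Atp8b4 (37.03). In LT-HSC replicate 1 the genes were Slc17a8 (251), Zfand5 (4999.7), Mad2l1 (2362) and Gmnn (2119). In LT-HSC replicate 3 they were Tifab (1.06), Plac8 (3109), Mpeg1 (13.8), Gna14 (10.6), Dntt (23.3) and Gp1bb (28.6, the lowest). Mad2l1 and Gmnn, both genes of dividing cells, were high in the same library. Among genes of myeloid cells, Siglecf and Ly6c2 were high in LT-HSC replicate 2, and Mpeg1 and Plac8 in LT-HSC replicate 3.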

How the results depend on the processing

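Many lower genes had few MPP2 reads: 55 of the 95 had under 20 normalized counts in every MPP2 library. Whether depth limits these calls was not tested. For the 77 called genes named here, 866 values under other settings kept their side of the threshold, 442 missed it in the same direction and none reversed. For 24 named genes that were not called, 338 values stayed short of it, 60 passed and 9 reversed: Pf4 was at -0.21 without WT LT-HSC replicate 3 and -0.18 without WT MPP2 replicate 1 (leave-one-out range -0.21 to 2.09), and Gp1bb at 0.089 with edgeR, 0.076 with DESeq2, 0.29 without the libraries numbered 52 to 54 and -1.62 to 1.65 across the leave-one-out fits (0.089, 0.37 and 0.11 without LT-HSC replicates 1, 2 and 4, and 1.65 without MPP2 replicate 3). DESeq2 gave Tyrobp and Ly6a no adjusted p, and these values are not counted. The cause was not tested.

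Counts of higher and lower genes were 21 and 14 with edgeR, 216 and 204 with DESeq2, 82 and 184 with a pseudocount of 16, 145 and 219 with the library-number run as a term (a block that keeps 138 of the 143 calls), and 16 and 80 with the 7 members alone. Leaving out 1 library gave 17 to 84 higher and 26 to 229 lower genes. Counts with voom weights (47 and 98), TMM scaling (48 and 96) and no filter (37 and 78) were close. The share of higher genes among the calls was 33.6%, against 51.4% with DESeq2, 60% with edgeR and 16.7% with the 7 members alone. Added after seeing the data, edgeR on the 18 libraries whose read unit is not near 1, which lack WT MPP2 replicate 2, called 0 and 0 genes (1370 at an unadjusted p under 0.05), and limma without the libraries numbered 52 to 54 called 38 and 124.

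Genes called in WT that passed in KO in the same direction numbered 31 with edgeR, 269 with DESeq2, 214 with a pseudocount of 16 and 294 with the run term, each among the calls of that fit, against 122. The genotype interaction gave 41 genes with DESeq2 against 0 with limma. Libraries could not be paired by animal, because the labels name no animals and give the groups no shared replicate numbers. The library-number run, which WT replicates 1, 2 and 3 of both populations share, was used as a block instead, as above. Across genes, MPP2 replicates 2 and 3 correlated best among LT-HSC libraries with those of their run (r = 0.8764 and 0.8785), and MPP2 replicate 1 with LT-HSC replicate 4 (0.8767, against 0.8748 within its run).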
